A study of Homo sapiens with 12 samples.

Results

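The genes described here carry out base excision repair and nucleotide excision repair, and they were chosen by name: 34 symbols, 18 of base excision and 16 of nucleotide excision, looked up in count tables that listed 63299 genes. The 34 symbols matched 41 lines of the tables, and the 7 surplus lines, extra copies of GTF2H4 and GTF2H2 under other identifiers, held 0 counts in every library. All 34 genes passed the filter on low counts and entered the tests, GTF2H4 only through its irradiated libraries.

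The libraries came from LNCaP-shPRMT5 cells, an androgen-responsive prostate cancer line that carries a hairpin RNA against PRMT5, the enzyme that places most symmetric dimethyl marks on arginine. The 12 RNA-seq libraries formed 4 groups of 3. Irradiated knockdown cells received doxycycline, which switches the hairpin on, at 1 µg/mL every 48 h and a dose of 2 Gy. Irradiated control cells carried the same hairpin without doxycycline and received the same dose. Both were harvested 24 h after irradiation. Non-irradiated knockdown cells received doxycycline and 0 Gy, and non-irradiated control cells received neither. Every knockdown culture also had doxycycline and no culture had doxycycline without the hairpin, so the drug and the loss of PRMT5 cannot be told apart. All libraries derive from 1 cell line, and since the labels do not say whether replicates were grown separately, the spread behind the p-values may be technical.

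Base excision repair removes single damaged bases. A glycosylase cuts the base from its sugar, an endonuclease opens the strand at the abasic site, and a polymerase and a ligase fill and seal the gap, with PARP enzymes and the scaffold XRCC1 marking the break. Nucleotide excision repair removes a short stretch of strand around bulky lesions: damage is found either across the genome or by a stalled RNA polymerase, the TFIIH complex unwinds the site, and a pair of nucleases cuts on either side of it.

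Promoter sequences are shown for CETN2, the member called lower in the knockdown, and for UNG and NEIL3. Irradiated replicate 1 was high in UNG and NEIL3, as in genes of the cell cycle, but not in them alone. In irradiated controls replicate 1 lay above the mean of replicates 2 and 3, on the log2 scale, by 1.57 for NEIL3 and 1.21 for UNG. It lay above by 1.08 for NEIL2, 1.03 for APEX2 and 0.81 for NTHL1. Other members were lower there, with -1.45 for UVSSA and -0.79 for ERCC6. The windows run from 250 bases before to 50 after the transcription start (RefSeq, GRCh38.p14), on the strand of the gene. They were read for CCAAT, a word common in promoters of cell cycle genes, and for TTTGAA, the core of the cell cycle homology region, on both strands. Capitals mark these words and their reverse complements. The CETN2 window is chrX:152830708-152831007 on the minus strand, that of UNG is chr12:109097922-109098221 on the plus strand, the downstream of its 2 listed starts, and that of NEIL3 is chr4:177309624-177309923 on the plus strand.
CETN2: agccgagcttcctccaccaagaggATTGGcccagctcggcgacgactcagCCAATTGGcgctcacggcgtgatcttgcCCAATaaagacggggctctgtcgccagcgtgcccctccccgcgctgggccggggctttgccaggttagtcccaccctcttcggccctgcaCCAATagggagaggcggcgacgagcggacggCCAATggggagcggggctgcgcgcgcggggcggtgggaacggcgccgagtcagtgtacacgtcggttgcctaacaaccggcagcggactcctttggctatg
UNG: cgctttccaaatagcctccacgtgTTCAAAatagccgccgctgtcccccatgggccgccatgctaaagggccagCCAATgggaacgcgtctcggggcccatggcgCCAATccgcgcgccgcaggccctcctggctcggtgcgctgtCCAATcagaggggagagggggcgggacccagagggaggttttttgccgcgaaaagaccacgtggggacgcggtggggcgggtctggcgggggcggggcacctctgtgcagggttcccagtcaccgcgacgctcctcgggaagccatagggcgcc
NEIL3: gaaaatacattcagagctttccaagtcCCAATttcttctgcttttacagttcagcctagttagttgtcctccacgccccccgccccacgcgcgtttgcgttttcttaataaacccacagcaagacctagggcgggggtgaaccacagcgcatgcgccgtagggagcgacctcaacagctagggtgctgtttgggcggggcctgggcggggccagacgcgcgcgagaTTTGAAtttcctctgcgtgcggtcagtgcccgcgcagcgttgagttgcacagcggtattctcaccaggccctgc
The CETN2 window held CCAAT 6 times, with 1 pair overlapping in a palindrome, and TTTGAA 0 times; at least 6 copies of CCAAT occurred in 0.12% of 35097 promoters of that length. The UNG window held CCAAT 3 times and TTTGAA 1 time; at least 3 copies of CCAAT occurred in 3.25% of promoters and at least 1 of TTTGAA in 15.2%. The window at the other UNG start held CCAAT 1 time and TTTGAA 0 times. The NEIL3 window held each word 1 time. Among the 31 members found in the promoter table (all but NEIL2, POLB and SMUG1), 18 held CCAAT and 6 held TTTGAA in at least 1 window. Besides UNG and NEIL3, those with TTTGAA were ERCC1, ERCC6, MUTYH and XRCC1. Irradiated replicate 1 was high in XRCC1, low in ERCC6 and mixed in ERCC1 and MUTYH. Counted by window, CCAAT was in 20 of 41 (48.8%), against 34.6% of all promoters, and TTTGAA in 6 of 41 (14.6%), against 15.2%. These matches describe letters and not bound sites.

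Total counts ran from 14801939 to 33158865 per library. PRMT5 itself stood at 26.6 to 32.8 CPM (counts as a share of all reads of a library, scaled by TMM) in non-irradiated knockdowns, against 186 to 198 in non-irradiated controls, and at 24.9 to 31.3 CPM in irradiated knockdowns, against 187 to 230 in irradiated controls. PRMT5 had a log2 fold change of -2.67 in non-irradiated cells (SE 0.13, edgeR adjusted p = 2.49e-06) and of -2.86 in irradiated cells (SE 0.13, edgeR adjusted p = 1.20e-06), and no library went against its label. Luminal prostate marker genes were high, with KLK3 at 1780 to 4075 CPM in the 12 libraries, and among the genes of leukocytes, fibroblasts and basal epithelium, CD3E, COL1A2 and PDGFRA had 0 counts, while LYZ reached 0.551 CPM, COL3A1 2.88 CPM, KRT14 4.96 CPM, KRT5 8.43 CPM and COL1A1 22.9 CPM. Of the 2 fibroblast genes tested, 1 was called higher by DESeq2 and with the replicate block in both knockdown comparisons. The basal genes summed to 3.34 to 9.81 CPM in the 4 replicate 1 libraries, against 0.731 to 1.38 CPM in the other libraries, and the fibroblast genes to 21.1 to 24.4 CPM, against 11.8 to 19.3 CPM. Their part in the results was not tested. The replicate 1 libraries of both irradiated groups stood apart: their chi-square per gene against their own replicates was 58.0 to 137, against 9.16 and 13.2 between the other irradiated pairs. Irradiated and non-irradiated libraries lie in separate deposited tables, so irradiation and any other difference between the tables cannot be told apart.

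Levels per length of exon (RPKM, averaged over the 12 libraries) differed widely within the set. The highest were APEX1, the endonuclease that opens abasic sites, at 154 RPKM, RAD23B, the partner of the lesion sensor XPC, at 108 RPKM, and PARP1, the break sensor, at 58.5 RPKM. Among the glycosylases, UNG, which removes uracil, averaged 23.7 RPKM and TDG, which removes thymine mispaired with guanine, 22.4 RPKM. OGG1, which removes oxidised guanine, averaged 2.53 RPKM. NEIL3, a glycosylase for oxidised bases in single-stranded DNA, averaged 0.860 RPKM. The subunits of TFIIH were not at 1 level: GTF2H3 averaged 22.8 RPKM and GTF2H5, its smallest subunit, 2.39 RPKM. GTF2H4 had 2 to 17 counts per library and averaged 0.143 RPKM.

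The steadiest member was DDB1, the adaptor of the damage-binding ubiquitin ligase, whose highest library was 1.17 times its lowest. NEIL3 was the most variable, with a ratio of 17.8 between its highest and lowest library, followed by GTF2H4 at 6.38, UVSSA at 3.90 and CETN2 at 3.00.

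**Figure D1:**
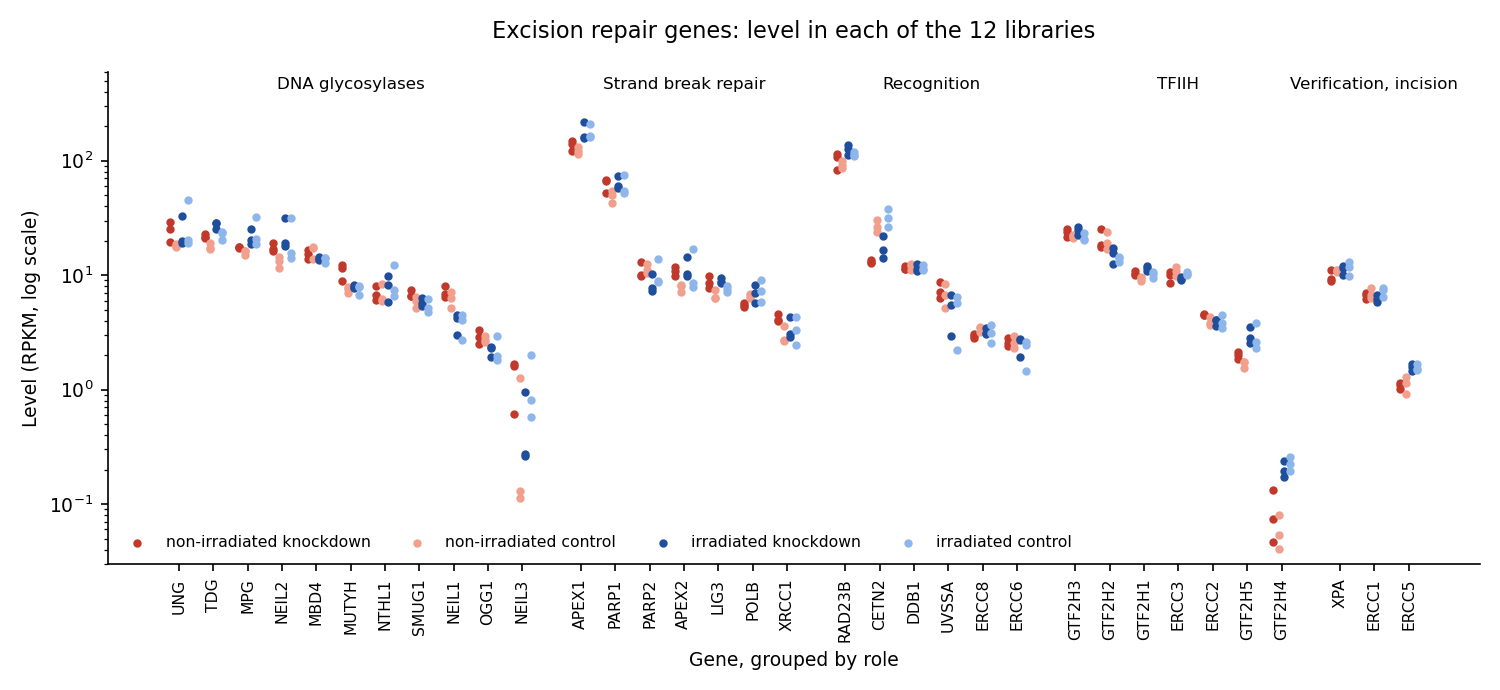
Level of each of the 34 genes in each of the 12 libraries, as RPKM on a log axis, with genes grouped by role and each point 1 library coloured by group. Mean levels run from 154 RPKM for APEX1 to 0.143 RPKM for GTF2H4, and the points of NEIL3 are spread the farthest.

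Counts of some members are uncertain, because the treatment of strand and of reads with several matches is not given in the sources used here. Of the 50-base words in its transcripts, GTF2H4 shared 72.7% with other genes, GTF2H2 65.1%, ERCC5 62.3% (with BIVM-ERCC5) and ERCC8 26.1%. Exon positions of LIG3 (30.5%), NEIL1 (30.5%), OGG1 (29%), ERCC1 (28.6%), MPG (27.3%), XRCC1 (24%), NTHL1 (16.5%) and MUTYH (14.1%) lie also in other genes, mainly on the opposite strand. Those of ERCC5 (41.8%) and ERCC8 (33.7%) do so mainly on the same strand. CETN2 and UNG shared neither words nor exon positions with another gene.

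The first question was what loss of PRMT5 did to these genes in cells that were not irradiated. A single member passed the test: CETN2 fell. It encodes centrin 2, a calcium-binding protein of the XPC damage-sensing complex that also sits in centrosomes. CETN2 (ENSG00000147400.8 in the tables, chromosome X, 152826973 to 152830777, GRCh38) stood at 26.2, 25.1 and 24.5 CPM in non-irradiated knockdowns, against 45.5, 58.1 and 50.5 CPM in non-irradiated controls. Every knockdown library lay below every control library. On the log2 scale CETN2 changed by -1.02 (SE 0.18, edgeR adjusted p = 0.0196). In bulk RNA, fewer cells that express a gene and less RNA per cell cannot be told apart.

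The 1 call is 2.94% of the members, against 1.54% of the 17191 genes tested that were called in either direction. The call was lost when 1 of 4 libraries was left out, with adjusted p = 0.0850 without control replicate 2, 0.0830 without control replicate 3, 0.106 without knockdown replicate 2 and 0.101 without knockdown replicate 3. The fold change without 1 library stayed between -1.03 and -0.93 in those 4 fits.

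Over all tested genes, knockdown and control libraries with the same number deviated together within each table, so the pairs were also fitted as blocks. The correlations of these deviations were 0.233 to 0.296 in non-irradiated and 0.607 to 0.775 in irradiated libraries. The block was fitted to all 12 libraries. It therefore also took differences shared by the irradiated pairs, such as those of replicate 1, out of the spread common to all groups. How much of the added calls in non-irradiated cells came from pairing there was not tested. With the replicate block, 8 members rose and 2 fell in non-irradiated cells. The 8 are 23.5% of the members, against 13.7% of all tested genes called higher with the block, and the 2 are 5.88%, against 14.1% called lower. The members that rose were UNG, MUTYH, NEIL2, TDG, APEX2, PARP1, XRCC1 and LIG3, all of base excision repair. The members that fell were CETN2 (adjusted p = 2.17e-05 with the block) and POLB, the polymerase that fills the gap. POLB stood at 21.8, 22.4 and 23.3 CPM in knockdowns, against 25.9, 27.2 and 28.1 CPM in controls (log2 fold change -0.27, adjusted p = 0.0176 with the block). For MUTYH, TDG, APEX2 and CETN2, replicate 1 lay on opposite sides of the mean of replicates 2 and 3 in non-irradiated knockdowns and controls. For the other members called with the block it lay on the same side.

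By role, 10 of the 11 glycosylases had a positive fold change and 0 passed the edgeR test of all 12 libraries without the block. An unadjusted p under 0.05 was found for 2 of the 11, against 2999 of 17191 tested genes. DESeq2 called 1 glycosylase, MUTYH, and 1034 of all tested genes. An edgeR fit of only the non-irradiated libraries, without the block, tested 33 members. It called the glycosylases MUTYH and NEIL2 and also APEX2 as higher, and CETN2 as lower. The share of all tested genes called in that fit is not given here. MUTYH, which removes adenine paired with oxidised guanine, stood at 35.1, 45.0 and 48.2 CPM in non-irradiated knockdowns, against 30.9, 29.6 and 27.5 CPM in non-irradiated controls. All 3 knockdown libraries were above all 3 controls, and replicate 1 was the lowest of the knockdowns. The log2 change of 0.55 (SE 0.13) had an adjusted p of 0.0606 without and 0.00390 with the block, and without knockdown replicate 1 it was 0.67 and passed (adjusted p = 0.0253). TDG stood at 105, 105 and 112 CPM in knockdowns, against 94.2, 82.8 and 84.1 CPM in controls, again without overlap (log2 fold change 0.30, SE 0.10, adjusted p = 0.162 without and 0.00551 with the block). UNG stood at 49.5, 74.1 and 64.7 CPM in knockdowns, against 46.1, 47.6 and 44.8 CPM in controls. The groups did not overlap, but the spread among the knockdowns was wide. The fold change of 0.44 had an SE of 0.32 (adjusted p = 0.506 without and 0.0251 with the block). As for every member, that SE rests on the spread in all 12 libraries. For UNG these include a high replicate 1 after irradiation, at 85.1 CPM in the knockdown and 117 CPM in the control.

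Among the 7 members that act on abasic sites and strand breaks, 5 had a positive fold change and DESeq2 called 1, LIG3. LIG3, the ligase that seals the nick, stood at 99.7, 110 and 126 CPM in non-irradiated knockdowns, against 82.2, 81.4 and 95.0 CPM in non-irradiated controls (log2 fold change 0.38, SE 0.11, adjusted p = 0.113 without and 0.00116 with the block). XRCC1 stood at 14.1, 16 and 13.8 CPM in knockdowns, against 9.30, 12.6 and 9.28 CPM in controls (log2 fold change 0.49, SE 0.23, adjusted p = 0.287 without and 0.00669 with the block). Neither gene overlapped between the groups. PARP1 stood at 372, 472 and 487 CPM in knockdowns, against 303, 386 and 357 CPM in controls. Here the lowest knockdown fell inside the control range, and the fold change of 0.35 (SE 0.17) had an adjusted p of 0.330 without and 0.00384 with the block.

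Of the 6 members that recognise damage, 2 had a positive fold change, and CETN2 was called by edgeR, by DESeq2 and with the block. ERCC8, a factor of transcription-coupled repair, had a log2 fold change of -0.20 (SE 0.15, adjusted p = 0.513) without overlap between the groups. Of the 7 TFIIH subunits, 6 had a positive fold change, and 0 were called by edgeR, at an unadjusted p under 0.05, by DESeq2 or with the block. The 3 members that verify and cut the lesion, XPA, ERCC1 and ERCC5, had fold changes from -0.17 to -0.05, also with 0 called by any of these. Over all 34 members the median log2 fold change was 0.14, with 23 positive, beside 0.00 over all tested genes. Knockdown and control libraries did not overlap for 15 members, 12 higher and 3 lower, which is 44.1% against 31.1% of all tested genes.

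**Figure D2:**
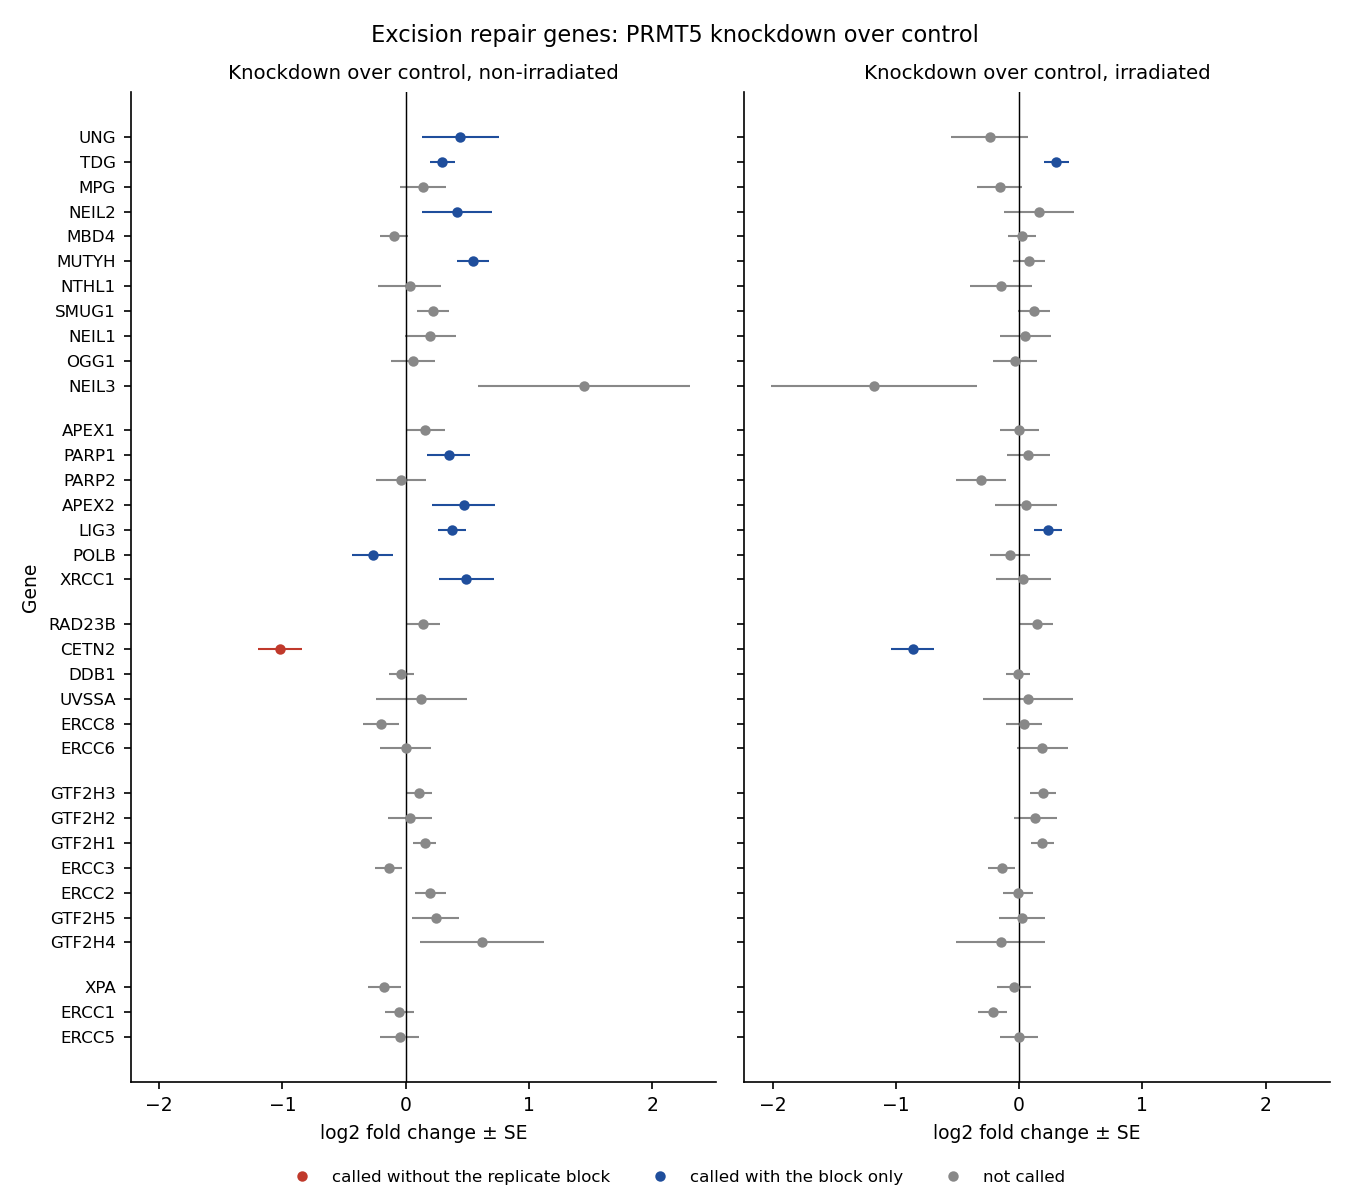
Log2 fold change of knockdown over control for each of the 34 genes, with its standard error, in non-irradiated (left) and irradiated (right) cells. In the fit of all 12 libraries, only CETN2 in non-irradiated cells (-1.02) is called without the replicate block. Blue points, 9 on the left and 3 on the right, are called with the block only.

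Genes of cell division also differed between these libraries. All 16 proliferation genes of a fixed list had a positive fold change in the non-irradiated comparison, with a median of 0.93, 0 calls by edgeR, 5 at an unadjusted p under 0.05, 1 call by DESeq2 and 1 call with the block. Their summed level was 470, 936 and 778 CPM in non-irradiated knockdowns, against 549, 245 and 267 CPM in non-irradiated controls. In pair 1 the knockdown was thus below its control, and in pairs 2 and 3 it was above. NEIL3 showed the same pattern, at 1.82, 4.74 and 4.98 CPM in knockdowns, against 3.77, 0.337 and 0.383 CPM in controls, a log2 difference of -1.05 in pair 1, 3.81 in pair 2 and 3.70 in pair 3. The part of proliferation in the values of the other members was not tested. Without pair 1, MUTYH was the only member called (log2 fold change 0.71, adjusted p = 0.0445), which is 2.94% of the members, against 1.12% of all tested genes, and CETN2 had a log2 fold change of -1.13 with an adjusted p of 0.0544.

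The next comparison asked the same of cells harvested after 2 Gy. No member passed the edgeR test, which called 0.297% of all tested genes. An unadjusted p under 0.05 was found for 2 of 34 members, against 1595 of 17191 tested genes. DESeq2 called 1 member, CETN2, and 265 of all tested genes. CETN2 stood at 42.6, 32.2 and 27.1 CPM in irradiated knockdowns, against 73.6, 61.3 and 50.5 CPM in irradiated controls. The groups did not overlap, and each knockdown was well below the control of the same number. Its log2 change of -0.86 (SE 0.18) had an adjusted p of 0.0873 without and 9.89e-05 with the block. Without irradiated knockdown replicate 1 it was -1.07 and passed (adjusted p = 0.0386), and without both replicate 1 libraries it was -0.92 and passed (adjusted p = 0.00446), as the only member, 2.94%, against 1.86% of all tested genes.

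With the block, TDG and LIG3 rose and CETN2 fell in irradiated cells. The 2 higher are 5.88% of the members, against 5.43% of all tested genes, and the 1 lower is 2.94%, against 6.05%. TDG stood at 140, 141 and 125 CPM in irradiated knockdowns, against 116, 114 and 98.6 CPM in irradiated controls (log2 fold change 0.30, SE 0.10, adjusted p = 0.369 without and 0.0114 with the block). LIG3 stood at 111, 113 and 122 CPM in irradiated knockdowns, against 98.1, 92.5 and 104 CPM in irradiated controls (log2 fold change 0.24, SE 0.11, adjusted p = 0.561 without and 0.0267 with the block). Neither gene overlapped between knockdown and control.

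Of the TFIIH subunits, GTF2H1 stood at 80.7, 84.2 and 74.8 CPM in irradiated knockdowns, against 70.7, 73.3 and 66.1 CPM in irradiated controls, without overlap (log2 fold change 0.19, SE 0.09, adjusted p = 0.572). GTF2H3 stood at 105, 98.2 and 89.4 CPM in irradiated knockdowns, against 83.0, 92.6 and 80.3 CPM in irradiated controls, with overlap (log2 fold change 0.20, SE 0.10, adjusted p = 0.605). ERCC1, a subunit of the nuclease that cuts upstream of the lesion, stood at 32.2, 34.2 and 37.1 CPM in irradiated knockdowns, against 41.6, 35.6 and 42.9 CPM in irradiated controls (log2 fold change -0.21, SE 0.12, adjusted p = 0.617). Those libraries overlapped too. The members' median was 0.02, with 19 of 34 positive, and 5 members, 14.7%, did not overlap, against 13.5% of all tested genes. The proliferation genes had fold changes of the other sign here: all 16 were negative with a median of -0.74, 0 were called by edgeR, 3 had an unadjusted p under 0.05 and DESeq2 called 0. They summed to 816, 409 and 398 CPM in irradiated knockdowns, against 1221, 597 and 584 CPM in irradiated controls.

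Across both irradiation states, 7 members moved in 1 direction in all 6 pairs of knockdown and control: GTF2H1, LIG3, SMUG1 and TDG were higher, and CETN2, ERCC3 and POLB were lower. That is 20.6% of the members, against 28.8% of all tested genes. CETN2 had by far the widest steps of the 7, from -1.21 to -0.79 on the log2 scale over the pairs, while TDG ran from 0.15 to 0.41, LIG3 from 0.18 to 0.43 and ERCC3, a helicase of TFIIH, from -0.25 to -0.06. SMUG1, a uracil glycosylase, ran from 0.02 to 0.35.

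**Figure D3:**
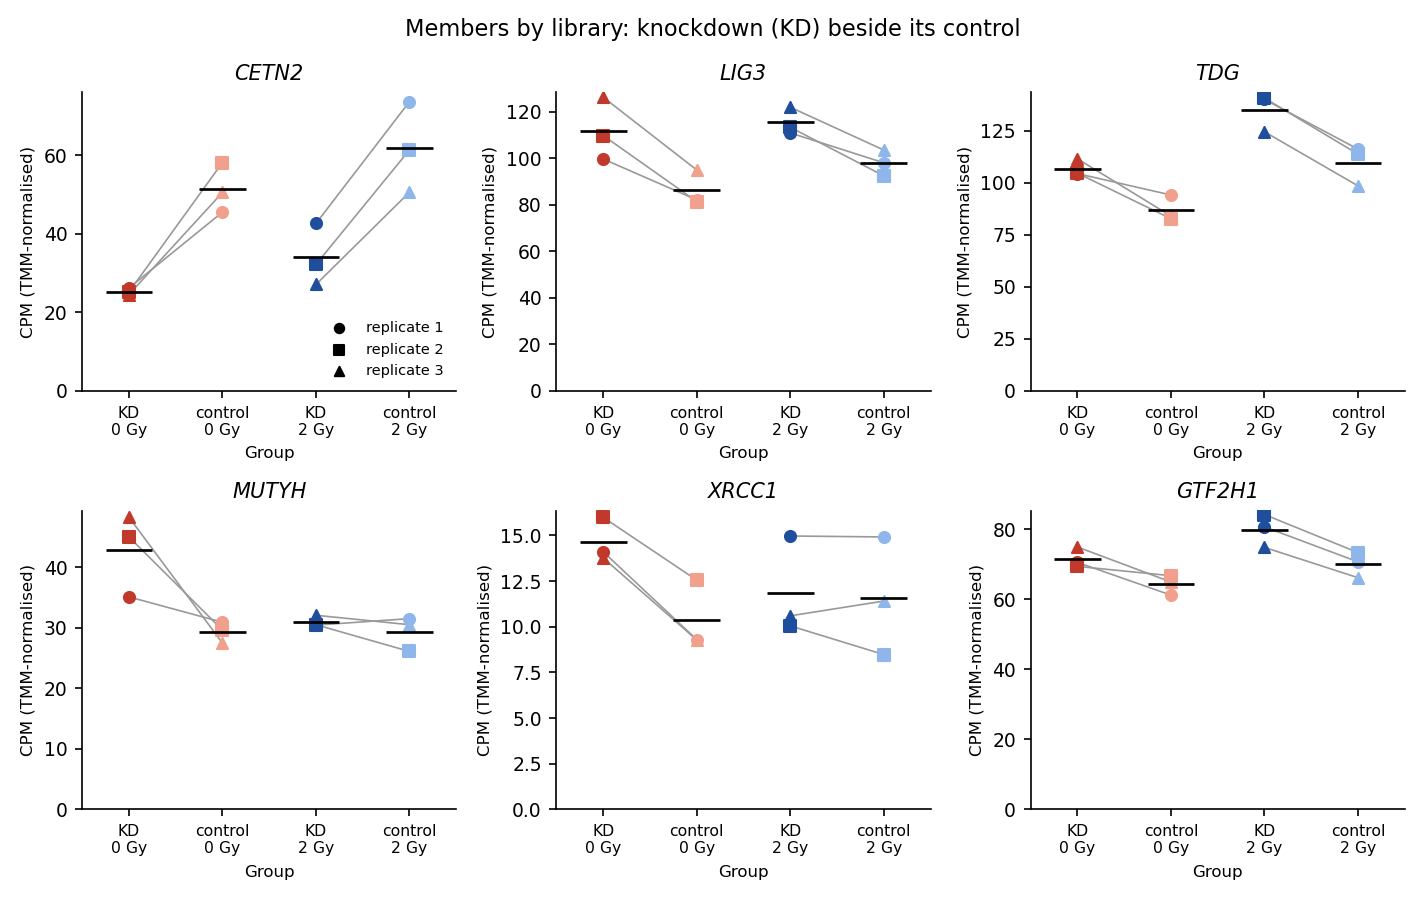
Level (CPM, TMM-normalised) of 6 genes in each library, with knockdown (KD) left of its control at each dose; marker shapes give the replicate number, grey lines join pairs and bars are group means. CETN2 is lower in the knockdown in all 6 pairs and LIG3, TDG and GTF2H1 are higher in all 6, while MUTYH and XRCC1 are separated only without irradiation.

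The difference between the knockdown effects, irradiated minus non-irradiated, was tested directly. It was called for 0 members, as for 0% of all tested genes. An unadjusted p under 0.05 was found for 2 of 34 members, against 350 of 17191 tested genes. DESeq2 called 0 members and 1 of all tested genes. MUTYH had the smallest p: its fold change was 0.08 with and 0.55 without irradiation, a difference of -0.47 (SE 0.18, unadjusted p = 0.0263, adjusted p = 1). NEIL3 had a difference of -2.62 (SE 1.20, unadjusted p = 0.0493, adjusted p = 1), UNG one of -0.68 (SE 0.45, adjusted p = 1) and XRCC1 one of -0.46 (SE 0.32, adjusted p = 1). For CETN2 the difference was 0.16 (SE 0.25, adjusted p = 1). The 16 proliferation genes had a median difference of -1.85, all negative, with 0 called by edgeR or DESeq2 and 10 at an unadjusted p under 0.05, and their part in these differences was not tested. The irradiated libraries of these genes show where the spread lies. MUTYH stood at 30.4, 30.5 and 32.1 CPM in irradiated knockdowns, against 31.5, 26.1 and 30.5 CPM in irradiated controls, and the groups overlapped. XRCC1 stood at 15, 10.0 and 10.6 CPM in irradiated knockdowns, against 14.9, 8.48 and 11.4 CPM in irradiated controls, and its replicate 1 was the highest of each group.

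UNG and NEIL3 had the same high replicate 1 after irradiation. UNG stood at 85.1, 48.8 and 51.0 CPM in irradiated knockdowns, against 117, 51.6 and 49.5 CPM in irradiated controls. NEIL3 stood at 2.84, 0.773 and 0.808 CPM in irradiated knockdowns, against 5.99, 2.39 and 1.70 CPM in irradiated controls. Within each irradiated group, the summed proliferation level given above was also highest in replicate 1. In NEIL2, a glycosylase for oxidised pyrimidines chosen here after its values were seen, replicate 1 held 106 CPM in both irradiated groups, while the other irradiated libraries ran from 47.8 to 64.7 CPM. UVSSA, a factor that recruits TFIIH to stalled RNA polymerase and was also chosen after its values were seen, went the other way. Its replicate 1 held 23.1 CPM in the irradiated knockdown and 17.4 CPM in the irradiated control, below 43.1 to 52.6 CPM in the other irradiated libraries.

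**Figure D4:**
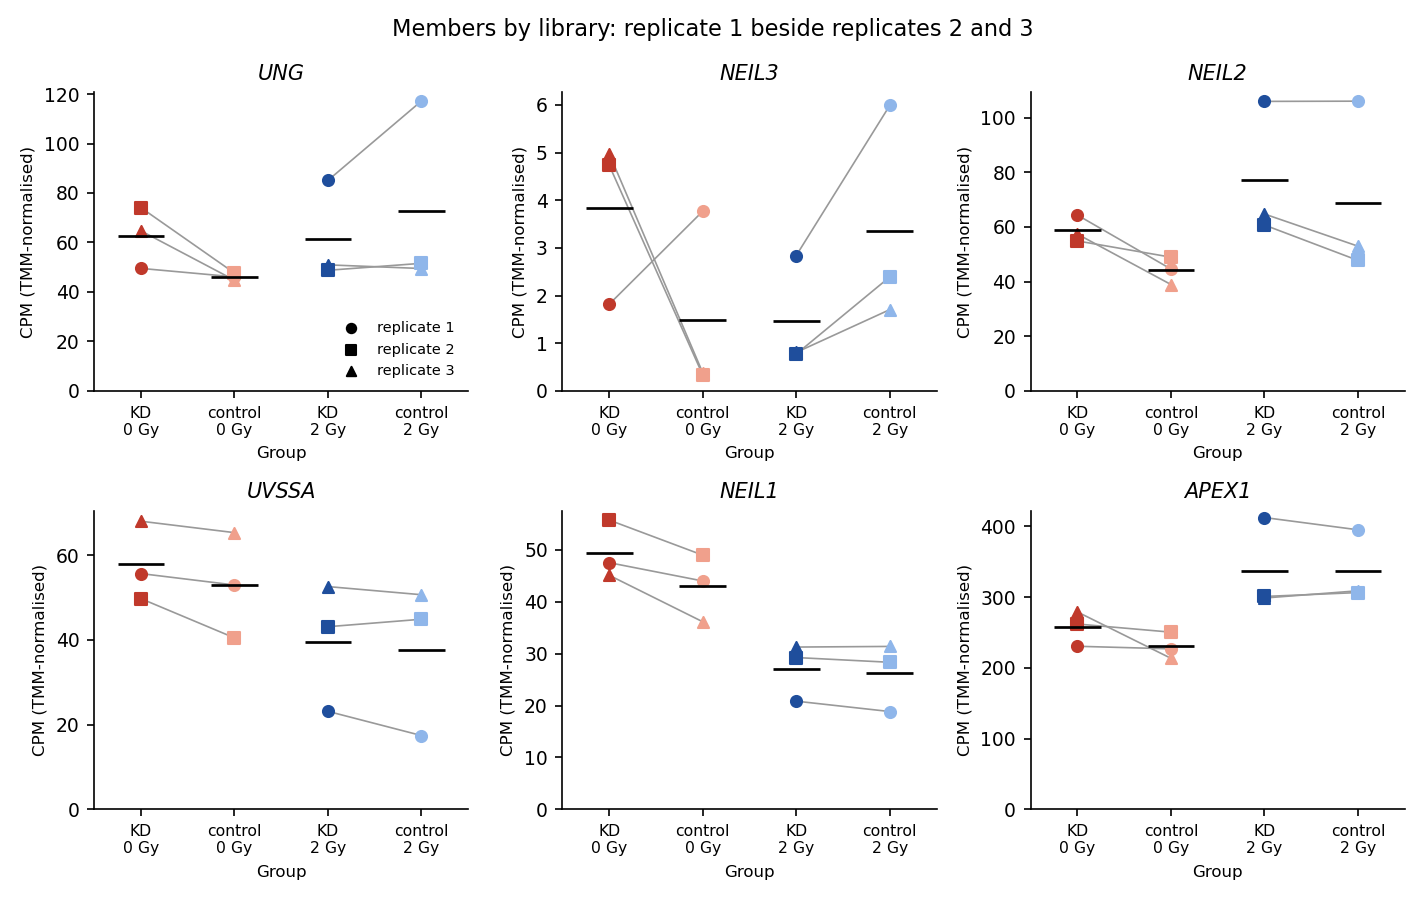
Level (CPM, TMM-normalised) of 6 genes in each library, drawn as knockdown (KD) left of its control at each dose, with replicate numbers as marker shapes and group means as bars. After 2 Gy the replicate 1 libraries lie above the others for UNG, NEIL3, NEIL2 and APEX1 and below them for UVSSA and NEIL1.

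The last pair of comparisons set irradiated against non-irradiated cells within each PRMT5 state. In knockdowns 1 member passed, NEIL1, which fell; it encodes a glycosylase for oxidised pyrimidines. NEIL1 (chromosome 15, 75346955 to 75357114) stood at 20.8, 29.2 and 31.2 CPM in irradiated knockdowns, against 47.5, 55.7 and 45.1 CPM in non-irradiated knockdowns, without overlap (log2 fold change -0.87, SE 0.21, adjusted p = 0.0422). In controls it stood at 18.8, 28.3 and 31.4 CPM when irradiated, against 44.0, 48.9 and 36.1 CPM when not, a log2 fold change of -0.72 (SE 0.21, adjusted p = 0.0844). The difference between these 2 fold changes, -0.15 (SE 0.29, adjusted p = 1), was not called. The call in knockdowns was lost without any 1 of the 6 libraries, with adjusted p from 0.0709 to 0.159 and fold changes from -0.98 to -0.71. The 1 call is 2.94% of the members, against 3.58% of all tested genes.

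Other members of the knockdown comparison came close to the threshold. MUTYH had a log2 fold change of -0.47 (SE 0.13, adjusted p = 0.0749), with 30.4 to 32.1 CPM in irradiated and 35.1 to 48.2 CPM in non-irradiated knockdowns, and passed without non-irradiated knockdown replicate 1 (-0.60, adjusted p = 0.0426). ERCC5, the nuclease that cuts downstream of the lesion, stood at 10.4, 11.1 and 9.65 CPM in irradiated knockdowns, against 7.27, 7.59 and 6.81 CPM in non-irradiated knockdowns (log2 fold change 0.52, SE 0.15, adjusted p = 0.0878). TDG had 0.34 (SE 0.10, adjusted p = 0.0971). None of the 3 overlapped between the doses, as was found for 29.8% of all tested genes. DESeq2 called all 3 and NEIL1, which is 4 of 34 members, against 1438 of 17191 tested genes.

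In controls the edgeR test called GTF2H4, a subunit of TFIIH, and no other member. GTF2H4 reached the filter on low counts only through its irradiated libraries, so a higher value there was favoured by the filter, and its values are given as a description. It had 16, 17 and 12 counts in irradiated controls, against 3, 3 and 2 counts in non-irradiated controls. The ratio of the summed counts, scaled for library size, was 4.02 (95% exact interval 1.87 to 9.87, counting error only). In irradiated knockdowns it had 12, 16 and 9 counts, against 2, 9 and 5 counts in non-irradiated knockdowns, a ratio of 2.28 (95% exact interval 1.24 to 4.39). The edgeR adjusted p in controls was 0.0469, and the call was not made with DESeq2 (adjusted p = 0.0503), without the filter (adjusted p = 0.0801), with only the control libraries fitted (adjusted p = 0.122) or without any 1 of the 6 control libraries (adjusted p from 0.0634 to 0.197). As given above, most of its sequence words and 79% of its exon positions are shared with other genes. The 1 call is 2.94% of the members, against 2.26% of all tested genes, and nothing is read from it.

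The other leading members of the control comparison were GTF2H5 and APEX1. GTF2H5 stood at 28.8, 19.6 and 17.2 CPM in irradiated controls, against 11.6, 13.1 and 13.0 CPM in non-irradiated controls (log2 fold change 0.80, SE 0.19, adjusted p = 0.0514), and it passed without irradiated control replicate 3 (0.95, adjusted p = 0.0454). APEX1 stood at 395, 307 and 309 CPM in irradiated controls, against 227, 251 and 214 CPM in non-irradiated controls (log2 fold change 0.55, SE 0.16, adjusted p = 0.0834). Neither overlapped between the doses, and in both genes replicate 1 was the highest irradiated control. The 16 proliferation genes all had a positive fold change in controls, with a median of 1.33. There 1 was called by edgeR, 4 by DESeq2 and 3 with the block, and 8 had an unadjusted p under 0.05. In knockdowns 14 of 16 had a negative fold change, with a median of -0.57, 0 calls by edgeR or DESeq2 and 0 at an unadjusted p under 0.05. In knockdowns GTF2H5 had a log2 fold change of 0.57 (SE 0.19, adjusted p = 0.116) and APEX1 one of 0.39 (SE 0.16, adjusted p = 0.179).

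The calls after irradiation changed without the replicate 1 pair of irradiated libraries. In controls 4 members were then called, with GTF2H5 and APEX1 higher and NEIL1 and OGG1 lower; in knockdowns GTF2H5 was higher and NEIL1, MUTYH and PARP2 were lower. These are 11.8% of the members in each, against 4.97% of all tested genes in controls and 10.3% in knockdowns. Without that pair the fold change of GTF2H5 in controls was 0.54 (adjusted p = 0.0285), that of APEX1 0.41 (adjusted p = 0.0417) and that of NEIL1 -0.53 (adjusted p = 0.0378). NEIL1 thus passed in controls also.

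Irradiated and non-irradiated libraries did not overlap for 14 members in knockdowns, 8 higher and 6 lower, which is 41.2% against 29.8% of all tested genes. In controls they did not overlap for 10 members, 8 higher and 2 lower, which is 29.4% against 27.6%. GTF2H4, which passed the filter only through its irradiated libraries, is counted among the higher members in both comparisons. Nothing is read from these shares. The median log2 fold change of the members was 0.04 in knockdowns and 0.14 in controls. Scaling by library size alone moved all genes by -0.15 in both comparisons and turned these medians to -0.11 and -0.02, so their direction depends on the scaling.

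**Figure D5:**
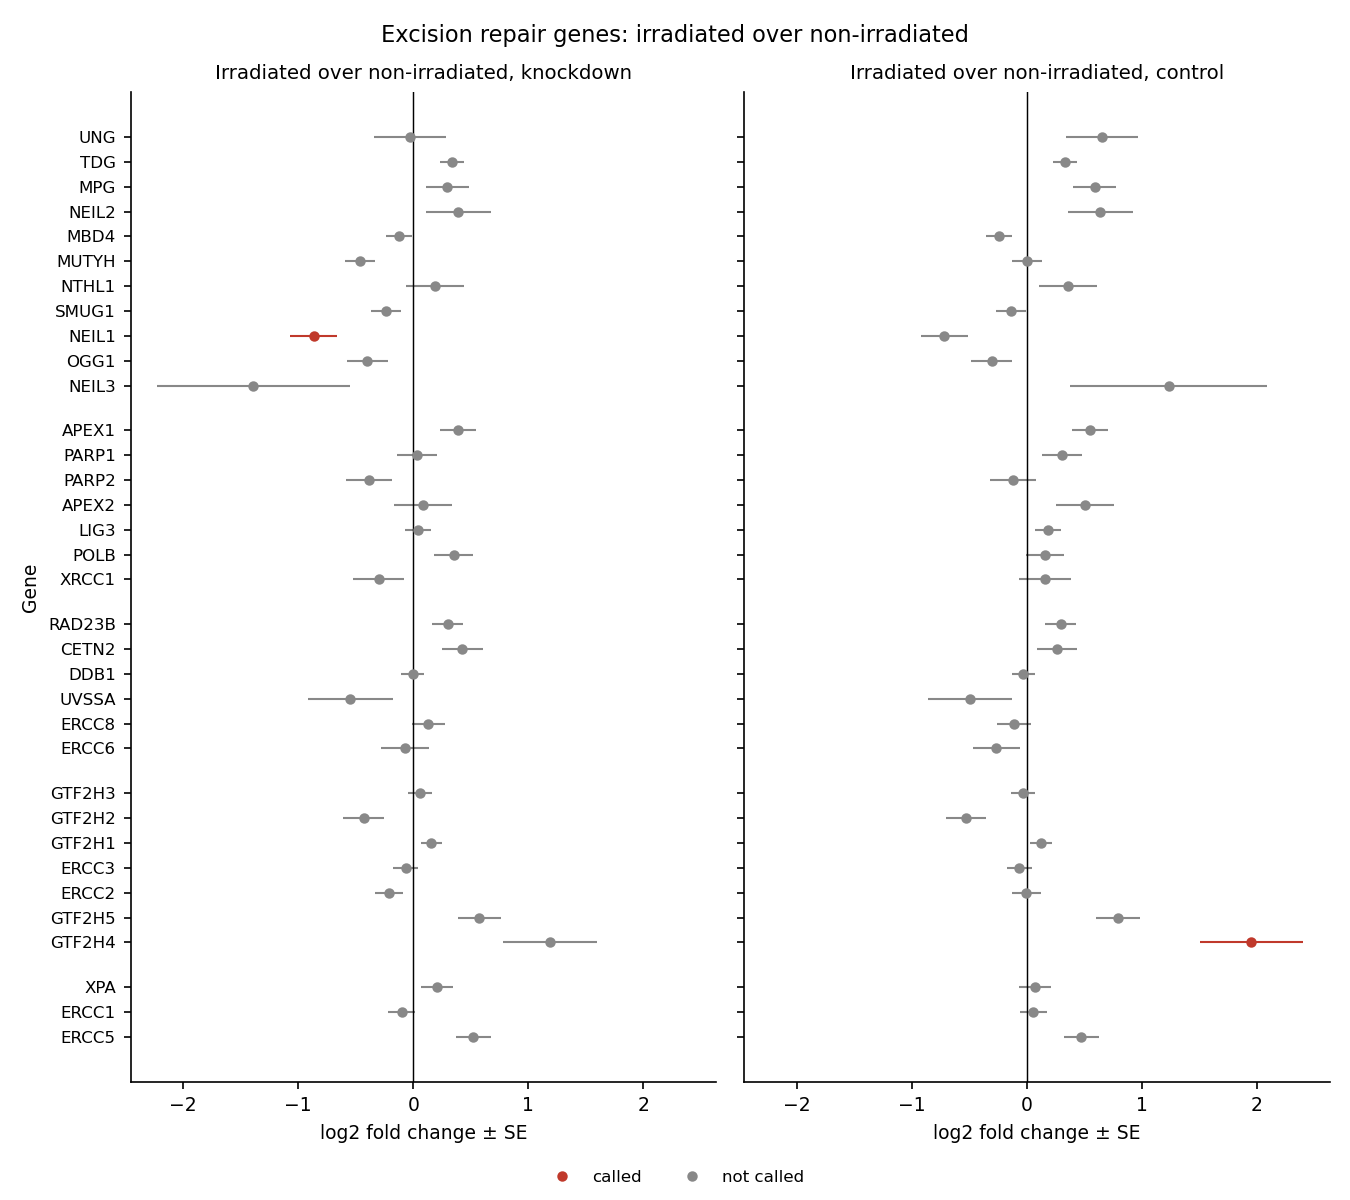
Log2 fold change of irradiated over non-irradiated for each of the 34 genes, with its standard error, in knockdown (left) and control (right) cells. The called points are NEIL1 in knockdowns (-0.87) and GTF2H4 in controls, which has 2 to 17 counts a library, passed the filter only through its irradiated libraries and is not called without the filter or by DESeq2.

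Beyond the 34 members, 47 other genes of the same pathways were tested as a list, 27 of base excision and gap filling and 20 of nucleotide excision. Without irradiation 1 of the 47 was called in the knockdown, TDP1, which clears protein adducts from DNA ends and rose. It stood at 83.2, 145 and 126 CPM in non-irradiated knockdowns, against 47.7, 61.5 and 45.0 CPM in non-irradiated controls (log2 fold change 1.20, SE 0.21, adjusted p = 0.0202). That is 2.13% of the list, against 1.54% of all tested genes. With the block 11 of the 47, 23.4%, were higher and 3, 6.38%, lower, against 13.7% and 14.1% of all tested genes. Of the 11, 7 were of base excision and gap filling, FEN1, LIG1 and PCNA among them, and 4 of nucleotide excision. All 16 proliferation genes also had a positive fold change in this comparison (median 0.93), and their part in this share was not tested. With irradiation 0 of the 47 were called by edgeR. An unadjusted p under 0.05 was found for 2 of the 47, against 1595 of 17191 tested genes. DESeq2 called 1 of the 47 and 265 of all tested genes. With the block 1 was higher (2.13%, against 5.43% of all tested genes) and 5 were lower (10.6%, against 6.05%). TDP1 there stood at 89.9, 110 and 111 CPM in irradiated knockdowns, against 72.3, 52.8 and 51.4 CPM in irradiated controls (log2 fold change 0.82, SE 0.21, adjusted p = 0.204).

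Between irradiated and non-irradiated knockdowns 1 of the 47 was called, CDK7, the kinase of TFIIH, which rose; that is 2.13% of the list, against 3.58% of all tested genes. It stood at 57.5, 49.4 and 47.6 CPM in irradiated knockdowns, against 35.9, 39.2 and 32.8 CPM in non-irradiated knockdowns (log2 fold change 0.52, SE 0.12, adjusted p = 0.0433). In controls 0 of the 47 were called by edgeR. An unadjusted p under 0.05 was found for 6 of the 47, against 3740 of 17191 tested genes. DESeq2 called 3 of the 47 and 1377 of all tested genes. CDK7 stood at 59.0, 58.0 and 49.6 CPM in irradiated controls, against 39.4, 44.7 and 36.8 CPM in non-irradiated controls (log2 fold change 0.46, SE 0.12, adjusted p = 0.0711). The knockdown and irradiation comparisons share groups, so their values for 1 gene are not independent.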

How the data were processed

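Polyadenylated RNA was sequenced, per the labels' protocols. The authors deposited unnormalised gene counts, 1 table for each irradiation state, with gene coordinates and exon length per the file headers. GRCh38, STAR 2.5, Subread 1.5.3, featureCounts and edgeR 3.20.8 are listed in the submitters' processing notes. For aligner options, strand setting, multi-mapping reads and annotation release: not given in the sources used here. The count tables held 0 lines that name no gene.

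From the counts, edgeR 4.0.16 in R 4.3.3 kept 17191 genes (filterByExpr, minimum count 10, minimum total 15), scaled libraries by TMM and fitted all 12 libraries together by robust quasi-likelihood, 1 coefficient a group (8 residual degrees of freedom). The call threshold was 0.05 on the p adjusted by Benjamini-Hochberg over all genes tested, and adjusted p-values refer to this test where no other is given. SE is the absolute log2 fold change divided by the square root of F. The exact permutation test of PRMT5 gave p = 0.1 for each irradiation state, the smallest that 3 against 3 libraries allow. CPM are TMM-normalised; RPKM are CPM per kilobase of exon. A count of 3, the limit that a count of 0 allows, was 0.0932 to 0.188 CPM, for counting error only.

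Deviations from the group means of knockdown and control libraries with the same number correlated at 0.233 to 0.296 (non-irradiated) and 0.607 to 0.775 (irradiated). The numbers were therefore taken to pair libraries within a table, though the correlations were weak in non-irradiated libraries. Across tables the correlations ran from -0.15 to 0.14, and libraries share only a number there. Replicates differed by more than sampling noise. Alternatives were DESeq2 1.42.0, library-size scaling, no filter, a fit of only the libraries compared, a replicate block and leaving out each library; leaving out replicate 1 pairs was added after seeing the data. Values per library are given for members called in any comparison and for those with the smallest p, 6 per knockdown comparison and 4 in the others. Genes shared with others were found from the tables' coordinates and GENCODE 29 transcripts. The members and lists were chosen with earlier results of these data known.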

Additional observations from a re-analysis of the deposited data

How the results depend on the processing

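Of the members called by edgeR, the knockdown without irradiation had 1, and 3 with DESeq2, 4 with only the libraries compared, 10 with the replicate block and 0 to 2 without 1 library. The knockdown with irradiation had 0, and 1 with DESeq2, with library-size scaling, without the filter and without the irradiated replicate 1 pair, 3 with the replicate block and 0 to 1 without 1 library. Irradiation in knockdowns had 1, and 4 with DESeq2, 2 with library-size scaling, 4 without the irradiated replicate 1 pair and 0 to 1 without 1 library. Irradiation in controls had 1, and 5 with DESeq2, 2 without the filter, 0 with only the libraries compared, 4 without the irradiated replicate 1 pair and 0 to 1 without 1 library; the 1 was GTF2H4, which is not among those called by DESeq2, without the filter or without the pair. Across the tables, same-numbered libraries share only a number. A replicate block there gave 2 of 34 members for irradiation in knockdowns, against 712 higher and 445 lower of 17191 tested genes. In controls it gave 4 of 34 members, GTF2H4 among them, against 584 higher and 381 lower of all tested genes. The difference of the knockdown effects had 0 under every setting run. The causes of these changes were not tested. Counts over all tested genes are not given here for 4 kinds of fit. These are library-size scaling, no filter, only the libraries compared and leaving out 1 library. The member counts under them therefore have no share of all genes beside them, and nothing is read from their rise or fall. Over all 17191 tested genes, the knockdown without irradiation had 265 calls by edgeR and 1034 with DESeq2. The knockdown with irradiation had 51 by edgeR and 265 with DESeq2. Irradiation had 615 and 1438 in knockdowns, and 389 and 1377 in controls. No value that passed the test changed sign under any setting, and PRMT5 stayed called in all. With 3 libraries a group and a biological coefficient of variation of 0.216 over all genes, the number of libraries limits the precision, and GTF2H4 is limited by its counts.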
